A study of Mus musculus with 24 samples.

Results

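ATAC-seq peaks, which mark DNA that the Tn5 transposase can reach in chromatin, were compared between primary colony forming unit erythroid cells (CFUE) and G1E-ER4+E2, an erythroid line in which GATA1 activity was restored. The comparison used 4 of the 24 libraries of the series, chosen by their titles, with 2 libraries of each type and 365778 of the 3430812 called peaks. CFUE came from bone marrow of adult C57BL6 mice and carried no genetic change or treatment in the labels. Per the study they were sorted as Ter119+, CD44+ and high in forward scatter, and negative for the other lineage markers. G1E-ER4+E2 is a single clone of G1E, a line derived from embryonic stem cells whose Gata1 gene was knocked out. It expresses a fusion of GATA1 with the estrogen receptor (GATA1-ER) that is active only with estradiol (E2). The study describes these cells as maturing only in part towards erythroblasts, and the labels give neither a strain nor a treatment time. The library numbers in the labels set CFUE apart from the lines, so cell type, culture, clone and any library batch cannot be told apart here.

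GATA1 is the transcription factor that drives red cell maturation. With TAL1, LMO2, LDB1 and KLF1 it opens and activates the globin, heme synthesis and red cell membrane genes, and with its cofactor FOG1 (Zfpm1) it turns down genes of earlier progenitors such as Gata2, Kit and Spi1. CFUE are the erythropoietin-dependent progenitors in which this program is already under way, and the line is widely used as its model. Open chromatin at a promoter or a distal element says that proteins can reach it, not that the gene is transcribed.

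The CFUE lists were the longer ones. CFUE replicates 1 and 2 held 133674 and 99390 peaks (116532 ± 24242, SD, n = 2), and G1E-ER4+E2 held 62408 and 70306 (66357 ± 5585, SD, n = 2). The groups did not overlap, but 2 libraries against 2 cannot give a two-sided exact permutation p below 0.333. The line libraries were also shallower, with a relative depth of 33.3% and 33.0% of CFUE replicate 1, against 84.9% for CFUE replicate 2. This depth was read from the steps between low peak scores and assumes that all lists were scaled to 1 total. Each comparison is therefore also given at equal peak number, with the 62408 highest-scoring peaks of each list, the size of the smallest. The score is an unnamed number deposited with each peak, and was used to rank peaks. Its scale differed between the types, with medians of 4.06 and 6.24 in CFUE and 9.48 and 9.58 in the line. The highest scores were 429 and 356.7 in CFUE and 8282.3 and 4137.3 in the line. Scores of both types are given below as deposited, and whether a higher score in 1 type marks a more open site was not tested.

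An element is the merged span of reproducible peaks, those met by a peak of the other replicate with an overlap of at least 1 bp, and a type is called at an element where it has such a peak. Examples of shared, CFUE-only and line-only elements follow, chosen as those with the highest score ranks in windows of erythroid genes. GATA motifs (AGATAA or TGATAA on either strand) are in capitals, and all are on the + strand of GRCm38.p6. Inpp5d, which encodes a phosphatase that limits cytokine and Kit signaling, had an element of each class within its introns, at chr1:87637564-87637811 (shared), chr1:87706448-87706639 (CFUE only) and chr1:87626512-87626674 (line only).
Inpp5d shared: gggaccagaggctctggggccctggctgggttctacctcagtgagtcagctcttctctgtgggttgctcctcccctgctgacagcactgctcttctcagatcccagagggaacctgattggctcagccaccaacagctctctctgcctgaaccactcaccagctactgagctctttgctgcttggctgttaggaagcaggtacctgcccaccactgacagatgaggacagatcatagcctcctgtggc
Inpp5d CFUE only: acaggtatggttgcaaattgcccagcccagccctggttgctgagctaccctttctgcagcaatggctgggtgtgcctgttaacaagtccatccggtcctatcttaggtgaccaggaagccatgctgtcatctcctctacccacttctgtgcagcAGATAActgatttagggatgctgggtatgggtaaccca
Inpp5d line only: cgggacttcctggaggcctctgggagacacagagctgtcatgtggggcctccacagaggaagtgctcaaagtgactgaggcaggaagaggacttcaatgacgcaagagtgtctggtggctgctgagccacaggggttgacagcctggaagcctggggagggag
The shared element scored 274.1 and 247.8 in CFUE and 110.7 and 148.9 in the line. By rank these were percentiles 99.85 and 99.89 of the CFUE lists and 98.57 and 99.23 of the line lists. The CFUE-only element scored 120.8 and 97.9 in CFUE, held 1 GATA motif and was also called in megakaryocyte erythroid progenitors (MEP) and erythroblasts (ERY) of the other 10 types. The line-only element scored 26.8 and 47.6, held no GATA motif and was called in 9 other types, all but ERY. Neither exclusive element had a peak in any library of the opposite type.

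Further elements at red cell genes show the exclusive classes. The CFUE-only elements are at chr6:55358892-55359109, between genes and 22569 bp downstream of the start of the water channel gene Aqp1, and at chr4:132060033-132060323 in an intron of Epb41, which encodes the skeletal protein 4.1. The line-only elements are at chr13:41020637-41020863 in an intron of Tmem14c, a transporter gene of heme synthesis, and at chr4:40155554-40155703 in an intron of Aco1, which encodes the iron-responsive protein IRP1.
Aqp1 CFUE only: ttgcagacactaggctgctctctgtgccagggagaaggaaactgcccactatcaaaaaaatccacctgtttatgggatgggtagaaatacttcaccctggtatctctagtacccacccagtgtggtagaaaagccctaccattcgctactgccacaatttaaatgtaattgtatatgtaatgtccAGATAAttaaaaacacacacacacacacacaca
Epb41 CFUE only: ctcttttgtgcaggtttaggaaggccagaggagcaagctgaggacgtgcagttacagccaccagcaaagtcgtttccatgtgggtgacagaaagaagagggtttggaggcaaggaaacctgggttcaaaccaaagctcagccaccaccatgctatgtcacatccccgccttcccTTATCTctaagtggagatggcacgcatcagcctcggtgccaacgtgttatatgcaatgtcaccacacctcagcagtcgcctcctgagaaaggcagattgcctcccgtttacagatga
Tmem14c line only: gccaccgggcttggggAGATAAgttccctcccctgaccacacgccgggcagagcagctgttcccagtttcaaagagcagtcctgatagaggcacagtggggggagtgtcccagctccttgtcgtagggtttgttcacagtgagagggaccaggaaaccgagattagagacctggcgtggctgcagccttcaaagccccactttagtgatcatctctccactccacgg
Aco1 line only: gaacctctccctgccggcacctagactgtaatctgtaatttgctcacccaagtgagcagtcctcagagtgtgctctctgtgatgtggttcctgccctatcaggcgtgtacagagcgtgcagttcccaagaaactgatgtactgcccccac
The Aqp1 element scored 175.2 and 138 and the Epb41 element 100.5 and 73.3 in CFUE, with no peak in the line. The Tmem14c element scored 80.3 and 69.8 and the Aco1 element 43.3 and 54.8 in the line, with no peak in CFUE. All of these but the Aco1 element held 1 GATA motif. The Aco1 element was called in G1E, the parental line without GATA1, and in no other type, and the Tmem14c element in G1E and in common myeloid progenitors (CMP), MEP and colony forming unit megakaryocyte cells (CFUMK) but not in ERY.

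The 2 types shared fewer than 2 in 3 of their elements. Among 63500 merged elements, 24155 were shared, 25243 were CFUE only and 14102 were line only. The line was called at 48.9% of CFUE elements, and CFUE at 63.1% of line elements. With the lists cut to equal length there were 55125 elements, of which 22050 were shared, 18242 were CFUE only and 14833 were line only. The shares were then 54.7% of CFUE and 59.8% of line elements, and over the 4 pairs of single libraries 52.2% to 53.4% and 54.8% to 55.7%. These pair values use unreplicated peaks and need not bracket the main value. In lists of equal length replicates were closer to each other than to the opposite type. There 83.4% of the merged peaks of each CFUE library and 80.2% and 79.1% of those of the line were met by the other replicate, against 54.1% to 56.8% between types. In the full lists 47.3% and 63.8% of those of CFUE were met by the other replicate, and 27.8% to 39.1% by a line library. For the line these were 83.7% and 74.4%, and 58.0% to 63.0% by a CFUE library. The correlation of presence over all merged peaks was then -0.097 between CFUE replicates. Between CFUE replicate 2 and the line libraries it was 0.146 and 0.118. The exclusive elements were for the most part free of any peak of the opposite type, 76.7% of CFUE-only and 78.1% of line-only elements in the full lists. Shared elements were wider, with a median of 239 bp against 173 bp (CFUE only) and 188 bp (line only). ATAC-seq averages over a population, so fewer cells with an open site and less opening per cell cannot be told apart in these calls.

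Shared elements lay mostly at promoters and exclusive elements of the line mostly away from them. An element was called promoter when its center lay within 1 kb of an annotated transcript start, and distal otherwise. Promoter elements made up 65.5% of shared, 40.4% of CFUE-only and 26.2% of line-only elements, and 68.0%, 47.7% and 27.5% at equal peak number. Over the 4 pairs of single libraries at equal number these shares ran from 65.8% to 66.3%, 44.6% to 47.1% and 26.9% to 27.9%, so the classes did not overlap. In counts, 14996 promoter and 7054 distal elements were shared, 8702 and 9540 were CFUE only, and 4084 and 10749 were line only. Line-only elements thus outnumbered CFUE-only elements away from promoters and were fewer at promoters. In the full lists the distal order was the opposite, with 15036 CFUE-only and 10409 line-only distal elements. Of line-only elements 44.3% were in introns, against 32.1% of CFUE-only and 18.8% of shared elements.

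**Figure D1:**
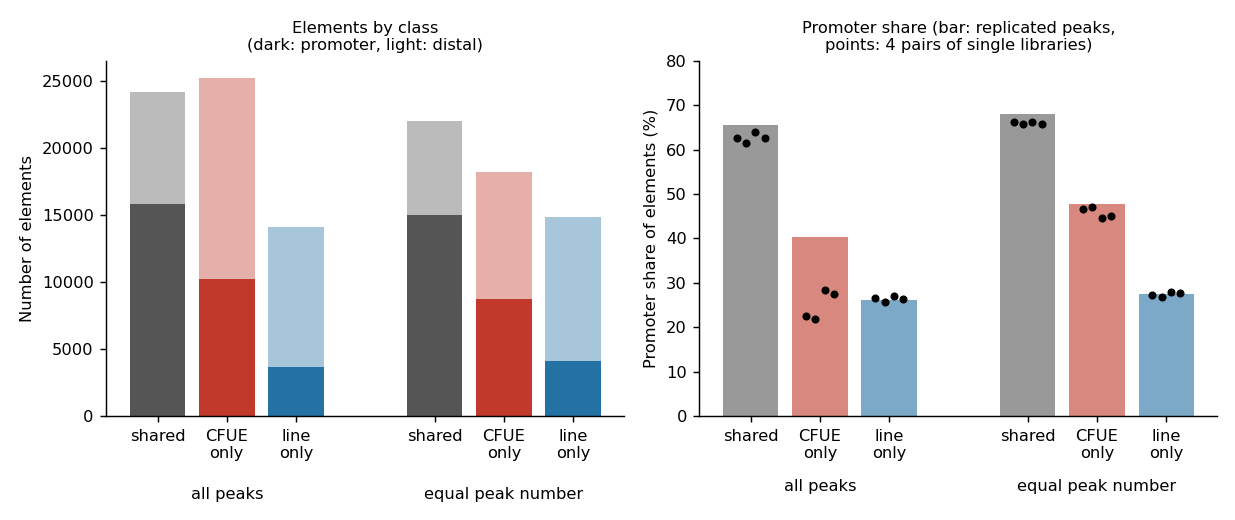
Left, number of shared, CFUE-only and line-only elements at promoters (dark) and away from them (light), from all peaks and at equal peak number. Right, promoter share of each class in percent, with points for the 4 pairs of single libraries; shared elements are highest at 65.5% and 68.0%, line-only elements lowest at 26.2% and 27.5%.

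The promoter share of the peaks themselves changed direction with list length. It was 36.1% and 43.8% in CFUE (39.9% ± 5.47, SD, n = 2) and 51.1% and 48.7% in the line (49.9% ± 1.64, SD, n = 2), 9.98 points higher in the line. At equal peak number it was 58.7% ± 0.65 in CFUE and 50.7% ± 0.54 in the line (SD, n = 2), 8.0 points lower in the line. Both exact permutation p were 0.333, the smallest possible.

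The other 10 types were not used to define the classes. CFUE-only elements were mostly open in ERY, the next stage in the marrow, and rarely in G1E. Line-only elements were called more often in G1E than in ERY. With the 4 lists at equal length, 80.8% of CFUE-only elements were called in ERY and 9.81% in G1E, whereas 17.4% of line-only elements were called in ERY and 45.2% in G1E. Over pairs of single libraries the first value ran from 64.6% to 67.0% and the last from 36.0% to 36.8%. With the other types also held to 62408 peaks, ERY was called at 76.7% of CFUE-only and 9.76% of line-only elements. G1E stayed at 9.81% and 45.2%, since its lists were not above that number. How many sites were missed in G1E for the length of its lists was not tested. In the full lists the 4 shares were 68.5%, 7.76%, 11.3% and 42.9%. Shared elements were called in ERY at 95.8% and in G1E at 73.3%.

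For the remaining types the order of the exclusive classes depended in part on list length. MEP, the bipotential progenitor, was called at 63.0% of CFUE-only and 60.3% of line-only elements, and CFUMK, its megakaryocytic neighbor, at 63.1% and 63.8%. With these types also held to 62408 peaks the shares were 37.4% and 39.8% in MEP, so the order turned, and 28.5% and 37.2% in CFUMK. The multilineage types LSK (the compartment of the stem cells), CMP and GMP (granulocyte monocyte progenitors) were called at 37.5%, 52.1% and 40.5% of CFUE-only elements and at 38.9%, 56.1% and 45.3% of line-only elements. Held to 62408 peaks they were at 17.6%, 19.7% and 15.9% against 23.1%, 32.1% and 25.3%, so line-only elements were called more often in each. Immature megakaryocytes, monocytes and neutrophils were called at 45.9%, 31.2% and 27.04% of CFUE-only and at 42.5%, 27.6% and 24.9% of line-only elements. Held to equal number the values were 21.5%, 20.9% and 21.4% against 24.7%, 19.2% and 20.9%, so the order turned for immature megakaryocytes. Elements called in none of the 10 types were more frequent in the line, at 17.1% of line-only, 6.95% of CFUE-only and 0.304% of shared elements. In the full lists the line-only and CFUE-only shares were 20.01% and 14.1%.

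**Figure D2:**
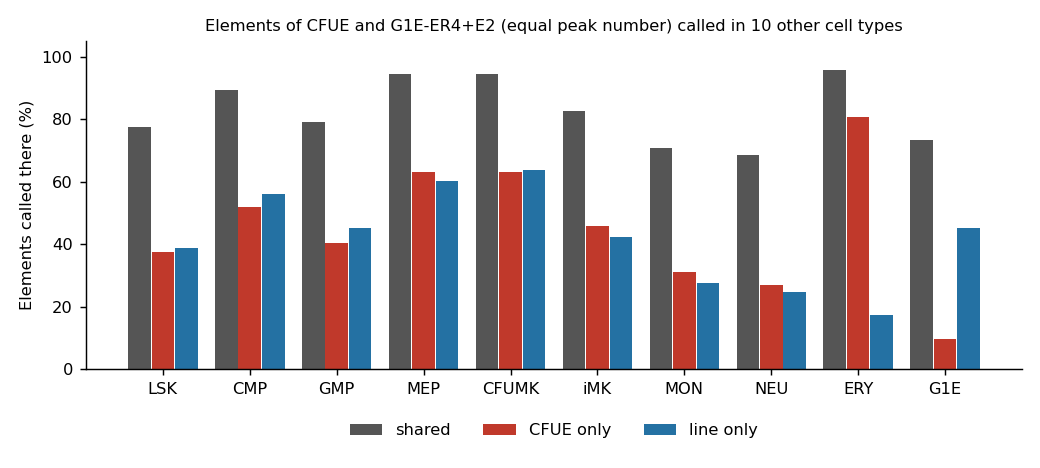
Percent of shared, CFUE-only and line-only elements (equal peak number) that were also called in each of the other 10 populations. ERY and G1E separate the exclusive classes, with 80.8% and 9.81% for CFUE-only and 17.4% and 45.2% for line-only elements.

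GATA motifs were present in distal elements of all 3 classes above the local background. They were, at equal peak number, in the 200 bp about the center of 37.0% of shared, 33.4% of CFUE-only and 39.2% of line-only distal elements, against 18.2%, 18.7% and 19.97% of windows moved by 10 kb. The difference of CFUE-only minus line-only elements was -5.87 points (-9.44 to -6.92 over pairs of single libraries), and -12.3 points with all peaks (28.1% and 40.4%). RUNX motifs (TGTGGT), bound by factors of progenitors and megakaryocytes, were in 24.1% of line-only elements against 17.3% of CFUE-only and 17.7% of shared elements. ETS motifs (GAGGAA), the class that includes PU.1 and FLI1, were in 22.2%, 16.8% and 18.4% in the same order, and AP-1 motifs (TGANTCA) in 9.52%, 6.02% and 7.36%. CTCF motifs, which mark structural sites shared by many cells, went the other way, with 10.8% of shared, 8.25% of CFUE-only and 5.22% of line-only elements. At equal number the pair ranges of line-only and CFUE-only elements did not overlap for any of these 5 motifs. With all peaks those of CTCF did, at 2.29% to 3.46% of CFUE-only and 3.36% to 3.82% of line-only elements. Replicated elements from all peaks kept the CTCF order, with 8.16% of CFUE-only and 4.04% of line-only distal elements.

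The composite of GATA and an E-box, a TAL1 and GATA1 target, was in 14.1% of shared, 11.0% of CFUE-only and 11.7% of line-only distal elements. KLF/SP motifs (CCNCNCCC) were in 32.1%, 25.2% and 28.9%, and the E-box of TAL1 (CAGNTG) in 48.2%, 49.98% and 47.4%. The estrogen response element, which the DNA-binding part of the intact estrogen receptor recognizes, was in 1 of 7054, 1 of 9540 and 3 of 10749 (0.0142%, 0.0105% and 0.0279%). These are too few to compare the classes. All motifs were read on both strands, and the CTCF, composite and estrogen motifs are given by name only. The GATA motif is part of the composite, which also holds an E-box.

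**Figure D3:**
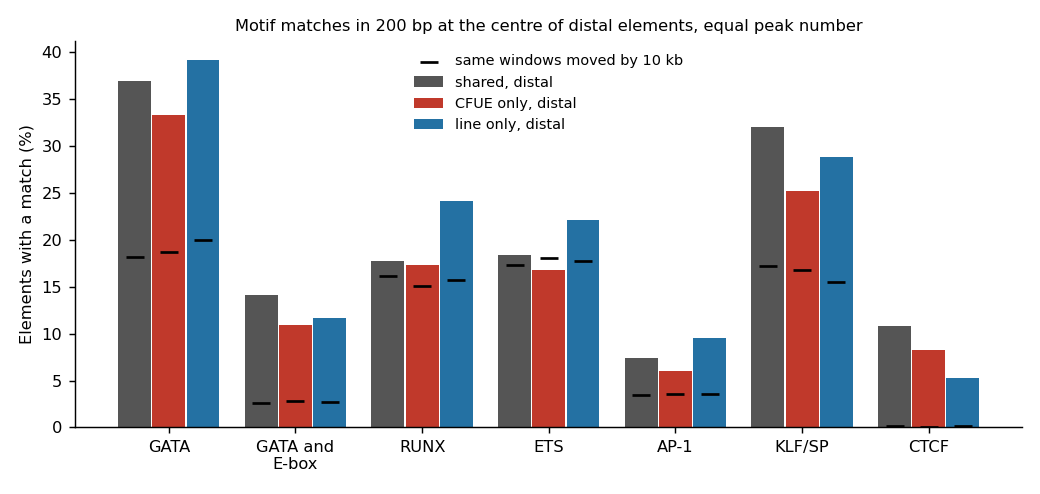
Percent of distal elements (equal peak number) with each motif in the 200 bp about the center, by class, with dashes for the same windows moved by 10 kb. GATA motifs were in 37.0% of shared, 33.4% of CFUE-only and 39.2% of line-only elements, and RUNX and ETS motifs were highest in line-only elements.

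Exclusive elements were not spread evenly along the genome. Consecutive CFUE elements with no line peak between them formed 166 runs of 10 or more elements, with 2574 elements (5.21% of CFUE elements) over 120 Mb. Of these, 30 runs held 20 or more elements. In the opposite direction there were 3 runs of 10 or more line elements with no CFUE peak, the longest of 11. The numbers in lists of equal length were 100 and 69 runs. Equal length removed more peaks from the CFUE lists than from those of the line. Of the 69 line runs 0 were free of CFUE peaks in the full lists, which held 2353 such peaks there. Of the 100 CFUE runs 64 had no line peak in the full lists, with 47 line peaks in all. The full CFUE lists are the longer ones, so the counts of the opposite directions cannot be set against each other in either setting. No random placement of elements was drawn, so these counts are a description.

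The longest CFUE run spanned chr17:42876604-44776764, with 50 elements and 159 and 126 CFUE peaks, no line peak, and 1 and 2 peaks in the G1E libraries. It includes Runx2, Cd2ap and Pla2g7. The next, chr17:49458023-50736590, held 47 elements, 142 and 95 CFUE peaks, and no peak in any of the 4 line libraries. Each library of the other 9 primary types had from 90 to 215 peaks there. The run at chr6:55167211-55717323, with Aqp1 and Mindy4, held 38 elements, 61 and 57 CFUE peaks and none in G1E or G1E-ER4+E2. The run at chr1:88600294-90582712, with Agap1, held 137 and 91 CFUE peaks and none in the 4 line libraries. Over the 30 runs of 20 or more elements there were 86 G1E peaks and 3412 ERY peaks, and 14 of the 30 had no G1E peak. The run at chr7:138919275-140036267 held 15 and 15 G1E peaks. Whether these stretches are present at normal copy number in the line genome was not tested, and closed chromatin and missing DNA cannot be told apart in a peak list.

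Per chromosome, the number of line-only per CFUE-only elements at equal peak number ranged from 0.39 on chromosome 19, 0.44 on chromosome 11 and 0.48 on chromosome X to 1.14 on chromosome 3 and 1.34 on chromosome 1. The CFUE libraries had 37 and 20 peaks on chromosome Y, and the line libraries none.

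Gene windows covered each protein-coding gene and 20 kb on each side. The number of peaks per 100000 called peaks was compared by limma over all 24 libraries, and the 17042 genes with a mean of 3 or more peaks were tested. At an adjusted p under 0.05, 5041 windows (29.6%) held more peaks per 100000 in the line than in CFUE and 3640 (21.4%) fewer. The CFUE lists were longer, so a window higher on this scale need not hold more peaks in the line. At equal peak number (52720 peaks, the smallest of the 24 lists) 1857 of 11724 windows (15.8%) were higher and 2374 (20.2%) lower in the line. The median window moved from +0.22 to -0.06 (log2, line minus CFUE) between these fits, and was 0.077 in the one centered on the median gene. The split therefore leaned to the line in the full lists and to CFUE at equal number. Only windows called in the same direction in both fits, 1372 higher (11.7%) and 816 lower (6.96%), are called "in both fits" here. Differences below are line minus CFUE on the log2 scale of peaks per 100000 plus 1, with SE.

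None of the 10 strongest rises in the line was on an erythroid list. Pawr, which encodes a pro-apoptotic partner of WT1, had 2 and 0 peaks in CFUE and 31 and 26 in the line (difference 4.80 ± 0.46, adjusted p = 3.5e-08, and 5.13 ± 0.45 at equal number, adjusted p = 1.4e-09). Its G1E libraries had 28 and 25 peaks. Hoxc4, a homeobox gene, had 2 and 0 in CFUE and 21 and 18 in the line, with 15 and 15 in G1E. The neuronal genes Nova1 (1 and 1 against 15 and 16) and Pou4f1 (2 and 0 against 11 and 12), and Zfp608 (5 and 3 against 27 and 28), were open in the same way. Pax3, Car8, Mkrn3, Fut9 and Inf2 had no CFUE peak and between 5 and 13 peaks in each line library. Car8 was the gene of these 10 with 0 and 1 peaks in G1E. The other 9 had between 3 and 29 peaks in each G1E library.

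The strongest falls were at genes with no line peak at all. Agap1, a regulator of membrane traffic, had 54 and 34 peaks in CFUE, Man1a, a mannosidase of the Golgi, 36 and 33, and Tgfbr3, the betaglycan receptor, 33 and 33. Lrch1 (42 and 29), Mindy4 (32 and 32), Mgat5 (38 and 26), Plcl2 (37 and 26), Il1r1 (32 and 29) and Map2k6 (30 and 28) showed the same. For windows with no peak in 1 type the fitted difference depends on the prior of 1 peak, so counts are given instead. At equal number Agap1 kept only 4 and 1 CFUE peaks, while Mindy4 kept 29 and 30. Of these named windows, 8 had no G1E peak in either library, and Map2k6 had 2 peaks in 1 G1E library. In all, 187 of 21938 windows had 10 or more peaks in both CFUE libraries and none in either line library, 149 of them with none in G1E, and 0 windows showed the reverse in these lists, where CFUE has more peaks. Among the 52720 highest peaks of each list 43 windows had 10 or more CFUE peaks and no line peak, and 37 the reverse.

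GATA1 and its partners kept open chromatin in the line at about the CFUE number of peaks. All 18 promoters of this list were called in both types (41.8% of all protein-coding promoters were). In the full lists 15 of 18 windows were higher and 0 lower in the line, beside 29.6% and 21.4% over all genes. Their median difference was 0.99, against 0.22 over all genes. Housekeeping genes had 10 of 18 windows higher and 0 lower in the full lists, with a median of 0.68. At equal number 2 of 17 windows of the GATA1 list were higher and 2 lower, beside 15.8% and 20.2% over all genes. The median was then 0.05, against -0.06 over all genes. Zfpm1 (FOG1, the GATA1 cofactor) had 20 and 19 peaks in CFUE and 30 and 33 in the line (0.68 ± 0.17 at equal number, adjusted p = 0.0031), and Gfi1b, an erythroid repressor, 11 and 12 against 18 and 22. Both rose in both fits. Lmo2, the bridge of the TAL1 complex, was higher in the full lists (0.66, adjusted p = 0.023) and lower at equal number (-0.65 ± 0.20, adjusted p = 0.013), so its direction depends on list length. Klf1 and Tal1 held 12 and 14, and 18 and 15, peaks in CFUE and 11 and 13, and 16 and 20, in the line, and neither was called at equal number (adjusted p = 0.78 and 0.90).

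At Gata1 itself, the gene knocked out in the parental line, windows held 9 and 8 CFUE and 4 and 8 line peaks (adjusted p = 0.66, and 0.19 at equal number). The gene lies at chrX:7959260-7978071 on the - strand. The strongest CFUE peak was in an intron, 6568 and 6582 bp from the start (scores 73.7 and 74.4), and the line peaks at 6609 and 6613 bp scored 19.3 and 22.3. How the deletion or the fusion gene shows in these peaks was not tested. Gata2, which GATA1 replaces during maturation, had 5 and 7 peaks in CFUE and 7 and 12 in the line. Its strongest peak lay 4.1 kb upstream in the line (16.9 and 20.9) and scored 5.41 and 5.58 in CFUE. None of the CFUE peaks of Gata2 was among the 52720 highest.

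The beta-globin cluster was more finely covered in the line, but its strongest sites scored higher in CFUE. Hbb-bs, an adult beta-globin gene, had 10 and 14 peaks in CFUE and 22 and 28 in the line (1.04 ± 0.26 at equal number, adjusted p = 0.0026), with 11 and 13 in G1E and 15 and 10 in ERY. Hbb-bt, Hbb-bh1 and Hbb-bh2 were also higher in both fits, with differences of 1.00, 1.34 and 1.38 at equal number. These windows overlap and share peaks, so the 4 calls are not independent. The promoter peak of Hbb-bs scored 260.9 and 220.8 in CFUE and 118.2 and 118.1 in the line. Hba-a1, an alpha-globin gene, had 21 and 19 against 12 and 14 peaks and was not called (adjusted p = 0.60, and 0.097 at equal number). Myb, a progenitor factor that is turned down as erythroid cells mature, was lower in both fits, with 19 and 14 peaks in CFUE and 3 and 3 in the line (-1.94 ± 0.49 at equal number, adjusted p = 0.0028). Sox6, which takes part in silencing embryonic globin genes, was lower at equal number alone (39 and 37 of the highest peaks against 19 and 19, adjusted p = 0.0086). At equal number 4 of 14 windows were higher and 2 lower, beside 15.8% and 20.2% over all genes, with a median of -0.38 against -0.06.

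Heme synthesis genes were open in both types. Of 19 promoters 18 were called in both, beside 41.8% of all genes, and Hmox1 in the line only. At equal number 2 of 19 windows were higher and 1 lower (median 0.06), beside 15.8% and 20.2% over all genes. Ppox, an enzyme of the pathway, had 9 and 7 against 11 and 14 peaks (0.61 ± 0.24, adjusted p = 0.046) and Tmem14c 9 and 11 against 16 and 18 (0.74 ± 0.26, adjusted p = 0.026), both higher also in the full lists. Urod was lower at equal number alone, with 10 and 10 against 4 and 6 peaks (adjusted p = 0.012). Alas2, the rate-limiting erythroid enzyme, had 12 and 9 peaks in CFUE and 11 and 10 in the line. It was higher in the full lists (0.75, adjusted p = 0.047) and not called at equal number (-0.10 ± 0.30, adjusted p = 0.82).

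Iron genes moved in both directions, with 2 of 16 windows higher and 3 lower at equal number. These counts were close to the shares over all genes, 15.8% and 20.2%, and the median was -0.30 against -0.06. At equal number Aco1 (6 and 4 against 10 and 13 peaks, 1.13 ± 0.24, adjusted p = 0.0007) and Steap3, the ferrireductase of the endosome (10 and 11 against 19 and 21, 0.90 ± 0.23, adjusted p = 0.0036), were higher. Ireb2, which encodes the companion protein IRP2, was lower (5 and 6 against 2 and 3, -1.01 ± 0.33, adjusted p = 0.02). These 3 held in both fits. Tfrc, the transferrin receptor, and Hfe, which binds it, were lower at equal number alone, with -0.96 ± 0.26 (adjusted p = 0.0048) and -0.78 ± 0.21 (adjusted p = 0.0055). The Tfrc promoter peak scored 250.8 and 187.2 in CFUE and 31.8 and 37.7 in the line.

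Most red cell membrane genes were not called at equal number, and the falls included genes with few or no line peaks. Of 25 windows 5 were lower, a share close to the 20.2% over all genes tested, and 1 was higher against 15.8%, with a median of -0.38. Aqp1, the water channel that carries the Colton antigen, had 16 and 18 peaks in CFUE and 0 and 0 in the line and in G1E. It was lower in both fits (adjusted p = 2.7e-10 and 1.1e-12). Slc14a1, the urea transporter, had 12 and 14 against 2 and 2 peaks and was also lower in both fits. Epb41 (17 and 18 against 9 and 10 of the highest peaks), Epb42 (12 and 12 against 5 and 7) and Cd44, used in the CFUE sort (4 and 7 against 2 and 3), were lower at equal number alone. Cd47, the signal that spares red cells from phagocytosis, was higher in both fits, with 21 and 18 against 24 and 24 peaks. Slc4a1, the anion exchanger band 3 at chr11:102348824-102366203, was not called (adjusted p = 0.53, and 0.27 at equal number), with 15 and 11 against 8 and 11 peaks. Its peaks lay at the same sites with lower scores, 296.7 and 251.5 in CFUE against 35.2 and 39 in the line about 9.2 kb upstream of the start. These scores are on scales that differ between the types.

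Of 24 maturation genes 22 had a promoter called in both types (41.8% of all genes did), Trim58 in CFUE only and Cd36, a fatty acid receptor, in neither. Trim58, a ubiquitin ligase that acts in enucleation, had 10 and 10 peaks in CFUE, 2 and 3 in the line and 0 and 0 in G1E, and was lower in both fits (-1.67 ± 0.34 at equal number, adjusted p = 0.00035). Its strongest peak, in an intron 1.3 kb from the start, scored 195.4 and 161.6 in CFUE and 23.7 and 23.6 in the line. Car2, a carbonic anhydrase (12 and 14 against 20 and 20), Prdx2, a peroxide scavenger (12 and 10 against 22 and 17), Cited2 (13 and 13 against 13 and 14 in the full lists, 5 and 6 against 13 and 12 at equal number) and Nt5c3, a nucleotidase (19 and 16 against 23 and 25), were higher in both fits. Cat, Cd24a and Rnf10 were lower at equal number alone, by -0.95, -1.98 and -1.37. Over the list 4 of 23 were higher and 4 lower at equal number, with a median of -0.13, so both shares were near those over all genes (15.8% and 20.2%).

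**Figure D4:**
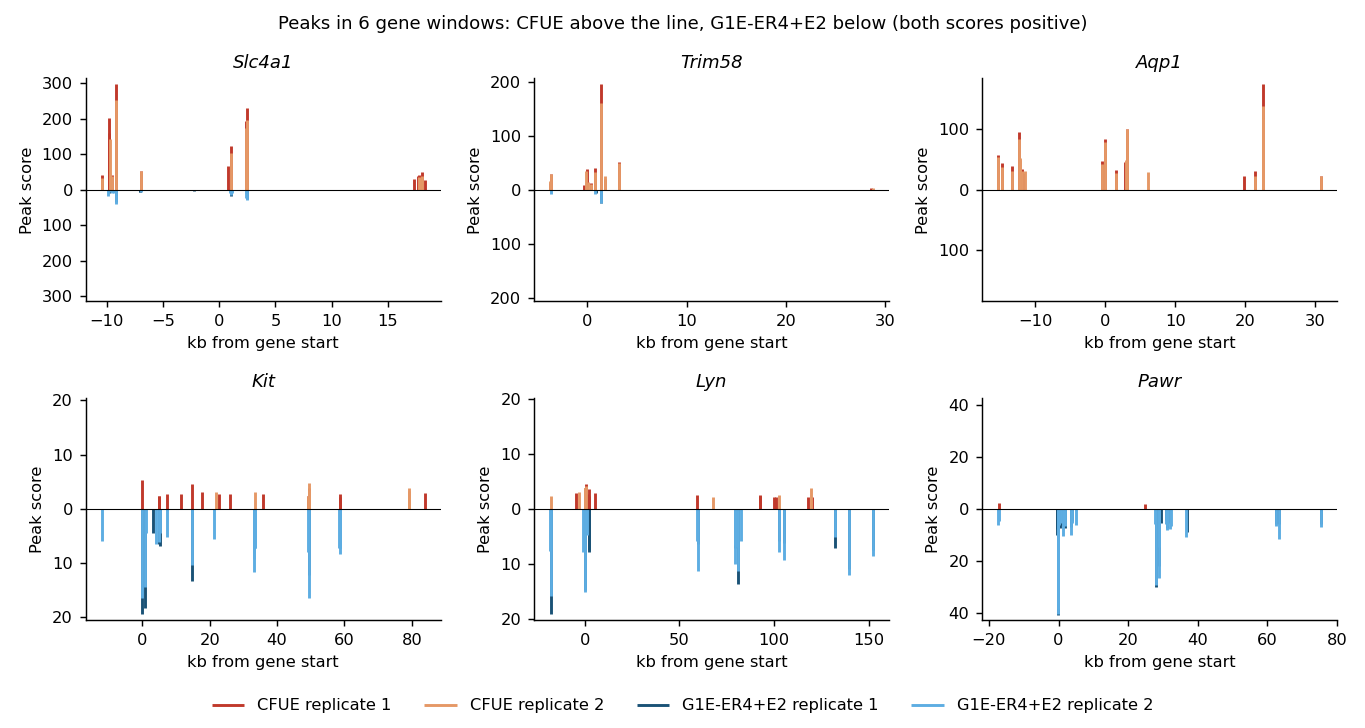
Score of each peak against its distance from the gene start in kb at Slc4a1, Trim58, Aqp1, Kit, Lyn and Pawr, with the CFUE libraries above the axis and the line libraries below. Slc4a1 and Trim58 had peaks at the same sites with higher scores in CFUE, Aqp1 had CFUE peaks alone, and Kit, Lyn and Pawr scored higher in the line. The score scale differs between the types.

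Erythropoietin and Kit signaling genes moved in both directions, with 3 of 16 windows higher and 2 lower at equal number. These counts were not far from the shares over all genes, 15.8% and 20.2%. Epor, the erythropoietin receptor, had 8 and 8 peaks in CFUE and 5 and 11 in the line and was not called (adjusted p = 0.10, and 0.33 at equal number). Stat5a and Stat5b, its signal transducers and neighbors with overlapping windows, were lower in both fits. Stat5b had 20 and 18 peaks in CFUE and 5 and 5 in the line (-2.09 ± 0.27 at equal number, adjusted p = 9.6e-07), and Stat5a 18 and 18 against 6 and 7. Pim1, a STAT5 target kinase, was higher in both fits (12 and 12 against 27 and 26, 0.94 ± 0.24, adjusted p = 0.0033). Kit, the stem cell factor receptor, and Lyn, a kinase below it, were higher in both fits. Kit had 15 and 7 CFUE peaks, none of which was among the 52720 highest of its list, against 14 and 20 in the line, of which 10 and 13 were. The highest CFUE score at Kit was 5.41 in replicate 1 and 4.78 in replicate 2, and the highest line scores were 19.3 and 16.4. Lyn had 15 and 8 against 18 and 18 peaks, and 0 and 0 against 16 and 13 at equal number. Kit is a surface marker of CFU-E, yet its scores were low in the libraries labeled CFUE, whereas Klf1, Epor, Slc4a1 and globin peaks scored high in them. Per the study these cells were sorted as Ter119+. Peak scores do not show the surface protein, so how far the label holds was not tested.

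Targets known to be repressed by GATA1 carried more peaks in the line for the length of its lists. At equal number 5 of 8 windows were higher and 1 lower, with a median of 1.08 against -0.06 over all genes and beside 15.8% and 20.2% called. Kit, Spi1, Vim and Cdk6 were higher in both fits, and Hhex at equal number alone. Spi1, which encodes PU.1, the myeloid factor antagonized by GATA1, had 7 and 7 peaks in CFUE and 14 and 14 in the line (1.31 ± 0.23 at equal number, adjusted p = 7.2e-05). G1E had 14 and 10. Its upstream peaks near -12 kb scored up to 62.9 and 47.5 in CFUE and 52.1 and 55.8 in the line, while its promoter was called in the line alone, with 11.2 and 12. Cdk6, a cell cycle kinase, had 13 and 16 against 27 and 26 of the highest peaks (0.85 ± 0.22, adjusted p = 0.0038), and Vim, an intermediate filament gene lost in red cells, 0 and 0 against 4 and 5. In the full lists Cdk6 had 41 and 37 against 34 and 40 peaks and Vim 12 and 2 against 6 and 7. Hes1, a Notch target, had 1 and 0 peaks in CFUE and 7 and 5 in the line (2.91 ± 0.30 in the full lists, adjusted p = 4.4e-09). Myb was the member that fell. In the full G1E lists Kit had 6 and 6 peaks, fewer than its 14 and 20 in the line, and Myb had 3 and 2, about as in the line. Cdk6 had 29 and 33 there, Vim 10 and 11, Hhex 5 and 6 and Hes1 6 and 4. Whether the line counts of this list follow repression by GATA1 was not tested.

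**Figure D5:**
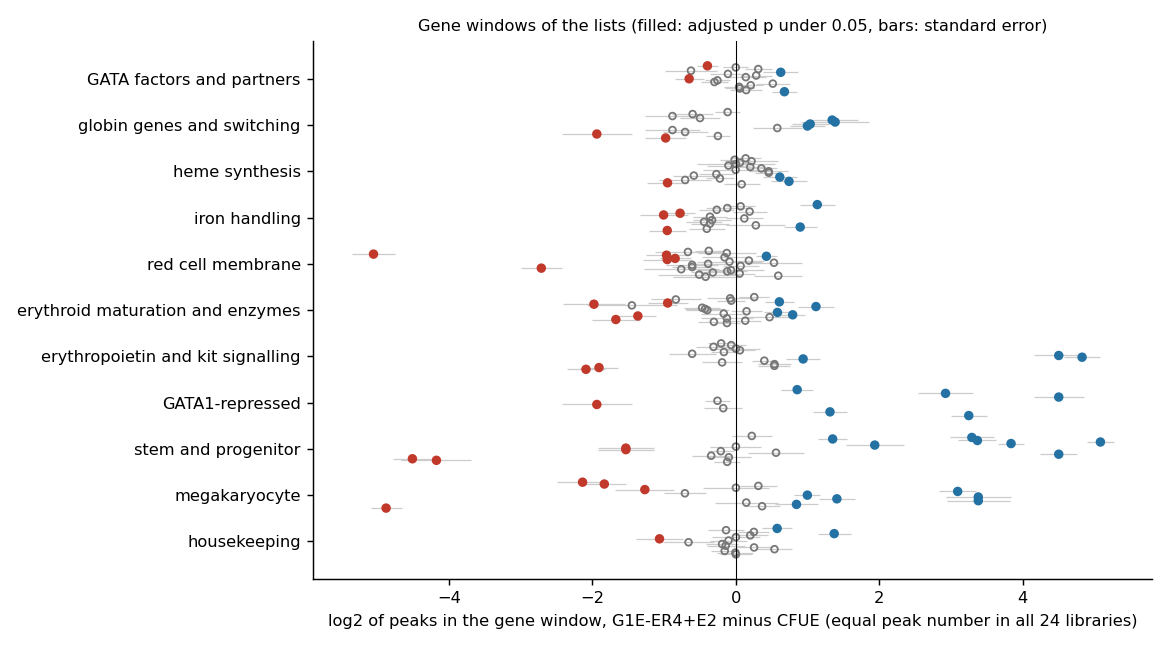
Difference in peaks per gene window (log2, line minus CFUE, equal peak number over 24 libraries) for the members of 11 lists, each point a gene with its SE, filled where the adjusted p was under 0.05. Of the GATA1-repressed genes 5 of 8 were higher, of the red cell membrane genes 5 of 25 were lower and 1 higher, and of the 16 housekeeping genes 2 were higher and 1 lower.

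Markers of other lineages moved in both directions. Of the stem and progenitor list 7 of 18 windows were higher and 4 lower at equal number, beside 15.8% and 20.2% over all genes. Meis1 (0 and 0 against 10 and 13 of the highest peaks), Fli1 (0 and 0 against 7 and 7), Etv6 (0 and 0 against 15 and 20) and Cd34 (4 and 4 against 11 and 11) were higher in both fits. In the full lists CFUE had peaks at each of these genes. The counts were 6 and 3 against 14 and 20 at Meis1 and 11 and 6 against 11 and 16 at Fli1. At Etv6 they were 36 and 13 against 25 and 31, and at Cd34 13 and 8 against 11 and 12. Prdm16 (35 and 22 peaks) and the megakaryocyte gene Vwf (23 and 22) had no peak in the line or in G1E and were lower in both fits. Both lay in a run of CFUE elements without line peaks. Of the megakaryocyte list 6 of 15 were higher and 4 lower, among them the platelet integrin Itgb3 (1 and 1 against 12 and 13 of the highest peaks) and the chemokine Pf4 (0 and 0 against 8 and 3), both higher in both fits. In the full lists Itgb3 had 14 and 10 against 14 and 22 peaks and Pf4 4 and 2 against 9 and 6.

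Of the granulocyte and monocyte list 4 of 20 windows were higher and 3 lower at equal number, of the mast cell, basophil and eosinophil list 2 of 5 and 2, and of the lymphoid list 3 of 9 and 4. Over all genes tested 15.8% were higher and 20.2% lower. Of the estrogen-responsive list 1 of 8 was higher and 1 lower. Esr1, the estrogen receptor gene, was lower in the full lists and higher at equal number. Pluripotency genes were 0 of 3 higher and 1 lower, those of other tissues 0 of 2 and 1, and those of the embryonic and fetal list 2 of 5 and 0. The 16 tested housekeeping windows had a median of -0.004, and all 18 of their promoters were called in both types.

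Promoters were compared by presence or absence. A promoter was called when a peak center lay within 500 bp of a transcript start of the gene, and exclusive when both libraries of 1 type and neither of the other had it. Of 21938 promoters 9176 (41.8%) were called in both types, 1153 (5.26%) in CFUE only, 351 (1.6%) in the line only and 9175 (41.8%) in neither, and in the other 2083 (9.49%) replicates differed. At equal number 8931 (40.7%) were shared, and 683 (3.11%) CFUE-only and 600 (2.73%) line-only promoters were close in number, while 10942 (49.9%) were called in neither and 782 (3.56%) differed between replicates. Among the erythroid, signaling and GATA1-repressed genes, Aqp1 (83.5 and 78.6) and Trim58 (38 and 34.1) had a promoter called in CFUE only. Those called in the line only were Hmox1, the heme oxygenase (44.7 and 50), Ptpn6, a phosphatase that limits erythropoietin signaling (14.9 and 23.6), Spi1 and Hes1 (31.8 and 44.2). The calls of these 6 were the same at equal number.

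The 250 bases before the RefSeq start of 3 exclusive promoters (GRCm38.p6, + strand) are Aqp1 at chr6:55336049-55336298, Trim58 at chr11:58640215-58640464 and Pawr at chr10:108331939-108332188. They are shown because Aqp1 and Trim58 carry the CFUE-only calls of the erythroid lists and Pawr the strongest rise of the line.
Aqp1 promoter: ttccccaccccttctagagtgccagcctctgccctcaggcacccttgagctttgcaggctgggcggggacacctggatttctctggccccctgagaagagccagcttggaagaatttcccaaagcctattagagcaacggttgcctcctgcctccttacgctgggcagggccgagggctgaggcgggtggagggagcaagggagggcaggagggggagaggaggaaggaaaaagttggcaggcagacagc
Trim58 promoter: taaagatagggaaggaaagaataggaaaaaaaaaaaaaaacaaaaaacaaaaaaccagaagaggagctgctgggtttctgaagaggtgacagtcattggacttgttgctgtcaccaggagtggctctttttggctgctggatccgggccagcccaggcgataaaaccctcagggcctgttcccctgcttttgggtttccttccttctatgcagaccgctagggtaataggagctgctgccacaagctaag
Pawr promoter: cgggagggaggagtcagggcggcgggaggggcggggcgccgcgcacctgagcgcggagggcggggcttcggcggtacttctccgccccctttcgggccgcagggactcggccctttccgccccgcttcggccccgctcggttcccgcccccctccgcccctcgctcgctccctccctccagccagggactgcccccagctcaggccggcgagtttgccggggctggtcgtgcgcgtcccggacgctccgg
None held AGATAA or TGATAA on either strand, which 16.6% of the 32817 RefSeq promoters of this length did. The Aqp1 peak centers lay 63 and 67 bp after the start (83.5 and 78.6) and those of Trim58 90 and 101 bp before it in CFUE. The highest Pawr promoter peaks in the line lay 289 and 231 bp before this start and scored 40.6 and 40.4.

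Distal elements of the gene lists differed in class. At equal number 53.4% of the 58 distal elements at globin genes, 41.5% of the 164 at membrane genes and 27.1% of the 107 at GATA factors were CFUE only, beside 34.6% of 23071 over all genes. Line-only elements made up 51.5% of the 33 at GATA1-repressed genes and 42.4% of the 92 at erythropoietin and Kit signaling genes, against 12.1%, 18.3% and 25.2% at globin, membrane and GATA factor genes and 38.7% over all genes. Each element was counted once per list.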

How the data were processed

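Peak lists of ATAC-seq libraries were used, 2 from CFUE and 2 from G1E-ER4+E2, with the other 20 libraries as readouts and for the spread of the gene fit. Groups follow the labels. As stated in the methods of the study and the processing notes, reads were trimmed by the authors to 30 bp and aligned to mm10 with Bowtie 0.12.8 allowing multiple matches. Mitochondrial and unplaced contigs were removed, SAMtools 1.6 (an older version in the methods) and bedtools were used, and HOMER called peaks of at most 150 bp in each library separately. The score of each peak was deposited by the authors without a name or unit. Of the scores under 10, 92.7% or more were whole multiples of a step (tolerance 0.0051), whose inverse gave the relative depth. The number of sites lost to shallow sequencing is unknown, and the lowest score of the lists ran from 1.35 to 2.71. No list of artefact regions was applied. Read counts and signal tracks are not used here.

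All peak ends lay within the chromosomes of GRCm38.p6. Its sequence and the GENCODE vM21 gene models were used, with Python 3.11.15, numpy 2.4.6, pandas 2.3.3, scipy 1.17.1, pysam 0.24.0, samtools 1.23.1, and matplotlib 3.10.9, and with limma 3.58.1 in R 4.3.3. Beside element shares the range over the 4 pairs of single libraries is given. The pairs reuse the same 4 libraries and hold unreplicated peaks, so this range is not an error of the main value and need not bracket it. Gene windows were fitted by limma (trend and robust variance, 12 group means over 24 libraries, prior of 1 peak, mean of at least 3 peaks) with Benjamini-Hochberg adjustment over all genes tested. On simulated data for this comparison over 17042 genes, 200 of them changed, 57% of 4-fold and 15% of 2-fold changes were found. Of 126 calls 54 were unchanged genes, and 8.5% of unchanged genes had a p under 0.05. The adjusted p threshold of 0.05 thus did not hold false calls to that share there. Single calls are therefore uncertain, and those near the threshold should be read with that in mind. The primary replicates were either other mice or other aliquots from 1 group of mice (which of these is not stated), so p-values may measure technical spread only.

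Named windows were the 10 largest rises and 10 largest falls that passed the test with separate groups and windows that did not overlap, and list genes that passed, had an exclusive promoter or define the cell types. Displayed elements were the 3 per class with the highest score ranks, at most 300 bases, and 1 shared element of tandem repeats was left out. Some items that these rules select are not reported here. Lists, members and tests were chosen with earlier results of these data known, so no pattern here is independent support. No symbol match was found for Ahsp, Hjv, H19 and Meg3. RefSeq promoters were matched by symbol.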

Additional observations from a re-analysis of the deposited data

How the results depend on the processing

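The settings below moved results, and the cause was not tested. At equal peak number the share of CFUE elements called in the line went from 48.9% to 54.7%, that of line elements called in CFUE from 63.1% to 59.8%, the promoter share of shared minus CFUE-only elements from 25.0 to 20.3 points and minus line-only elements from 39.3 to 40.5, CFUE-only elements called in ERY from 68.5% to 80.8%, line-only elements called in G1E from 42.9% to 45.2%, and the GATA motif share of CFUE-only minus line-only distal elements from -12.3 to -5.87 points. The promoter share of called peaks turned from 9.98 to -8.0 points. Windows higher in the line fell from 5041 to 1857 (1308 with the 4 libraries alone) and lower ones from 3640 to 2374 (1543).

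In the same order of the 7 element results, an overlap of at least 50% of the narrower peak moved the second to 60.02, the third to 20.4, the fourth to 34.1, the sixth to 47.5 and the seventh to -10.2. Counting as exclusive only elements with no peak in either library of the other type moved the first to 60.8, the second to 71.2, the fourth to 36.9 and the seventh to -13.6. Letting a peak in either library call a type gave 25.3, 59.3, 39.8, 35.0, 16.2, 28.2 and -20.4, a promoter distance of 2 kb moved the fourth to 34.3, and an equal score floor the seventh to -10.8.

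Leaving out a library, so that the other alone stood for its type, gave ranges of 23.7 to 56.9, 53.4 to 68.4, 24.3 to 40.4, 36.8 to 38.9, 25.4 to 67.4, 32.5 to 42.5 and -22.0 to -9.39. CFUE-only elements called in ERY were 36.2% without CFUE replicate 1 and 25.4% without CFUE replicate 2, and the share of CFUE elements called in the line 31.4% and 23.7%. The promoter difference of shared and CFUE-only elements was 40.4 without CFUE replicate 2, and the GATA difference -20.3 and -22.0 without CFUE replicates 1 and 2, and -3.17 and -3.82 at equal number without G1E-ER4+E2 replicates 1 and 2. At equal number, leave-outs chosen after seeing the data gave 46.8 to 60.8, 51.7 to 63.5, 19.5 to 21.5, 38.6 to 40.9, 66.2 to 80.02, 36.2 to 44.9 and -11.2 to -3.17. For windows, leave-outs gave 2674 (without CFUE replicate 1) to 5018 higher and 2906 to 3333 lower, and at equal number 1363 to 1470 and 1676 to 1832.

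Of 60 named genes 4 turned in some setting. Alas2 was -0.10 at equal number over 24 libraries and -0.23 over the 4, with leave-outs from -0.41 at equal number to 0.89 in the full lists. Klf1 was -0.11 in both, with leave-outs from -0.23 to 0.93, and Tfrc -0.96 and -0.39, with leave-outs from -1.18 to 0.62. Tal1 turned only in leave-outs at equal number, which ran from -0.082 there to 0.95 in the full lists. Lmo2 and Esr1, not among these 60, also turned at equal number. No paired analysis was possible because the labels give no replicate numbers shared by the groups.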
